A study of Mus musculus with 12 samples.

Results

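The vascular endothelial growth factor (VEGF) ligands and receptors were examined as 8 genes, namely the receptor kinases Kdr, Flt1 and Flt4, the co-receptors Nrp1 and Nrp2, and the ligands Vegfa, Vegfb and Vegfc. A probe set was taken as a member when the platform annotation gave it a single gene with one of these symbols. This found 8 of 18193 genes, carried by 21 probe sets. Each gene is described by whichever of its probe sets was brightest on average over all 12 arrays. All 8 passed the filter on dim probe sets, which left 13698 genes for testing.

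VEGF ligands are secreted proteins that bind receptor tyrosine kinases on the surface of endothelial cells and their progenitors. Kdr (VEGFR2, also called Flk1) carries most of the mitogenic signal of Vegfa and marks mesoderm that gives rise to blood, endothelium and heart. Flt1 (VEGFR1) binds Vegfa, Vegfb and placental growth factor and acts largely as a decoy in the embryo, and Flt4 (VEGFR3) is the receptor of Vegfc and is best known from lymphatic and early venous endothelium. The neuropilins Nrp1 and Nrp2 have short cytoplasmic tails, bind both VEGFs and class 3 semaphorins, and are used by endothelial, neural and cardiac progenitor cells.

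The cells were sorted from embryoid bodies, aggregates of differentiating mouse embryonic stem cells grown in hanging drops, on day 6. All of them descend from stem cells with a dsRed reporter under an enhancer specific for the second heart field, the pool of progenitors that builds the right ventricle and outflow tract, and an eGFP reporter under a cardiac-specific enhancer. Flow sorting gave double-positive (R+G+), red-only (R+G-), green-only (R-G+) and double-negative (R-G-) cells, and each population was put on 3 Affymetrix arrays, from experiments A, B and C. The reporters mark where 2 enhancers are active, not a cell type, and the double-negative cells are all the remaining cells of the embryoid body. The labels do not say whether the experiments were separate cultures, so the p-values measure only the spread between these arrays. Intensities are on a linear scale and come without detection calls. They are not comparable between probe sets, so no gene's level is set against another's. Sums over marker genes are compared only between arrays, and bright probe sets weigh most in them.

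The labels were checked against marker genes. The summed intensity of 8 cardiomyocyte markers was 20346 to 26539 in double-positive, 3836 to 5890 in red-only, 10752 to 13313 in green-only and 407 to 616 in double-negative cells. All 19 endothelial markers were measured, which without detection calls does not show that each was detected. Their sum was 381 to 526 in double-positive, 880 to 1085 in red-only, 520 to 1332 in green-only and 345 to 503 in double-negative cells. Emcn, an endothelial marker named after its values were seen, stayed between 4.5 and 7.6 on all 12 arrays, around the array medians of 6.29 to 6.73. Other markers of this list were higher in red-only and green-only than double-negative cells, as given further on. Within every population the array of experiment A had the lowest endothelial sum and the highest sum of 8 endoderm markers. Among double-negative cells the endothelial sums were 345, 457 and 503 for experiments A, B and C, and the endoderm sums 966, 272 and 557. The gap was widest among green-only cells, at 520, 1332 and 1327 for endothelial and 1776, 297 and 523 for endoderm markers. The double-negative cells also had the highest sums of blood markers, 1095 to 1988, and of pluripotent cell markers, 1481 to 1766. A bulk array cannot tell fewer cells of a type from less RNA per cell.

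Each of the 8 genes had a promoter entry, 250 bases before to 50 after an annotated start, in RefSeq on build GRCm38.p6. The windows of Kdr, Flt1, Nrp1 and the second Vegfa entry lie inside the annotated gene, so their start is not its outermost. The promoters of Kdr, Nrp1, Nrp2 and Vegfc are shown because these 4 genes were all higher in red-only than double-negative cells. Capitals mark GGAA or TTCC, the core bound by ETS factors read on either strand. Etv2, an ETS factor that initiates the endothelial lineage, is among the endothelial markers described further on.
Kdr, chr5:75978406-75978705, minus strand: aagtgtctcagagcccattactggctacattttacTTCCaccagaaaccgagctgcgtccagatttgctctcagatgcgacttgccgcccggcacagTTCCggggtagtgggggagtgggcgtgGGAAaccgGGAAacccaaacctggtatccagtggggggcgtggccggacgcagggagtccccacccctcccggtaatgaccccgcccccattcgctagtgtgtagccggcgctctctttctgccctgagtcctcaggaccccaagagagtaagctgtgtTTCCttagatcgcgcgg
Nrp1, chr8:128358823-128359122, plus strand: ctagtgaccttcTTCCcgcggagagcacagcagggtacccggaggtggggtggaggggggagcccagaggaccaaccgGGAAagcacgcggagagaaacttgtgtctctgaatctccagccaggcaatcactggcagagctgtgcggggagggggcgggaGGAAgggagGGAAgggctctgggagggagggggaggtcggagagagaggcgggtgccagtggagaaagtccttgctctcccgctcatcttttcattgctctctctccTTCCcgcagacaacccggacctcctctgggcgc
Nrp2, chr1:62703067-62703366, plus strand: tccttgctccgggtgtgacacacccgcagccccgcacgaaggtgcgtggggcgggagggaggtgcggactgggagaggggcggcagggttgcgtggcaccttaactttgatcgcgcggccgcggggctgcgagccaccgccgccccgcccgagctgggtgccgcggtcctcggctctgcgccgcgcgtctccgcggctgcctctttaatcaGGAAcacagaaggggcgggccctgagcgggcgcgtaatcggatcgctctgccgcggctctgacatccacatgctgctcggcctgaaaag
Vegfc, chr8:54077282-54077581, plus strand: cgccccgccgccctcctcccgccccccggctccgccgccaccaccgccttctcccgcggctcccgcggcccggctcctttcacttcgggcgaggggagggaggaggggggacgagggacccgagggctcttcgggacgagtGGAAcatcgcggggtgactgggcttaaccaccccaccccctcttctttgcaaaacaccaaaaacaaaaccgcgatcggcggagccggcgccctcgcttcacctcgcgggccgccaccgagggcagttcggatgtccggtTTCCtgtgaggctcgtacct
The Kdr window held 5 matches, Nrp1 5, Nrp2 1 and Vegfc 2, and the windows of Flt1, Flt4 and Vegfb, which are not printed, held 4, 2 and 2. Vegfa, also not printed, has 2 entries, with 6 and 3 matches. The core is short, and 96.0% of 32544 mouse promoters of the same length contained it, with a median of 3 matches. A second motif, the hypoxia response core ACGTG or GCGTG on either strand, was found in 44.0% of promoters. It occurred 2 times in the Kdr window, 1 time in that of Nrp1, 2 times in that of Nrp2 and 0 times in that of Vegfc. Flt1 had 1 match, Flt4 0, Vegfb 2, and the Vegfa entries 0 and 2. A match describes these letters and not a site in use.

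**Figure D1:**
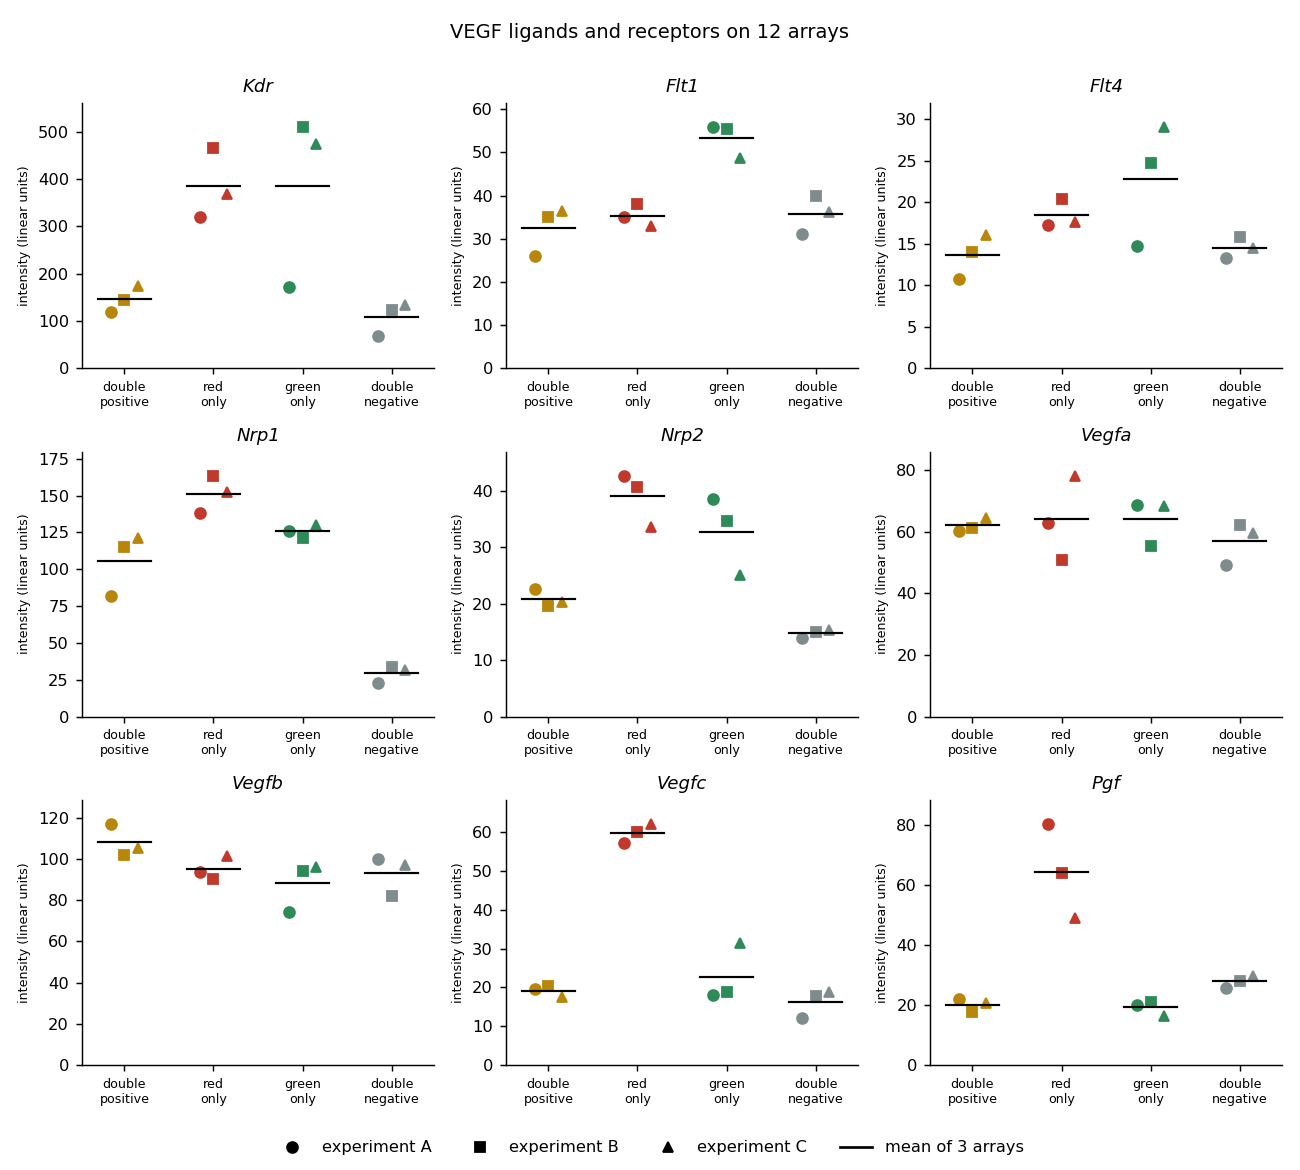
Intensity in linear units of the 8 VEGF genes and of Pgf, which is not a member, on 12 arrays. Each point is 1 array, its shape gives the experiment, and the line is the mean of 3 arrays. Kdr and the neuropilins have higher means in red-only and green-only cells than double-positive or double-negative cells, Vegfc and Pgf stand out in red-only cells, and the means of Vegfa and Vegfb lie close together.

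Kdr varied widely between arrays, with a standard deviation of 0.90 over the 12 log2 values. Its intensity was 118.5, 143.4 and 174.2 in double-positive cells of experiments A, B and C. It was 319.8, 465.1 and 369.5 in red-only cells, and 172.4, 509.8 and 474.6 in green-only cells. In double-negative cells it was 67.4, 124.0 and 133.0. Within each population the array of experiment A had the lowest Kdr value. All red-only arrays lay above all double-positive and double-negative arrays. The green-only array of experiment A lay among the double-positive arrays, and the other green-only arrays had the highest values of the series.

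In log2 terms Kdr was 1.83 ± 0.35 (SE) higher in red-only than double-negative cells (limma, adjusted p = 0.00216). In green-only cells it was 1.70 ± 0.35 higher than double-negative cells (adjusted p = 0.00391), and without the green-only array of experiment A this was 2.20. Double-positive cells, which carry both reporters, showed no called difference from double-negative cells (0.45 ± 0.35, 95% interval -0.31 to 1.22, adjusted p = 0.395). Against red-only cells they were 1.38 ± 0.35 lower (adjusted p = 0.0218), at -1.40, -1.67 and -1.07 in experiments A, B and C. That call was lost without double-positive A (adjusted p = 0.0864), double-positive B (0.0614), red-only B (0.0853) or red-only C (0.0556). Against green-only cells the value was -1.25 ± 0.35 (adjusted p = 0.0586). It passed the test with the experiment as a replicate block (adjusted p = 0.00279), and was -1.75 (adjusted p = 0.00134) without green-only A. It also passed without double-negative A (adjusted p = 0.0486).

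Flt1 was set apart by the green-only cells. Its intensity was 26.0, 35.1 and 36.4 in double-positive, 35.0, 38.0 and 33.0 in red-only, 55.8, 55.4 and 48.8 in green-only and 31.1, 39.9 and 36.1 in double-negative cells. The 3 green-only arrays lay above the other 9, and these 9 overlapped among their populations. Unlike the endothelial sum, Flt1 was not low on the green-only array of experiment A, where it had its highest value. It was 0.53 ± 0.12 higher in green-only than double-negative cells (adjusted p = 0.0059). It was 0.66 ± 0.12 lower in double-positive than green-only cells (adjusted p = 0.00666) and 0.54 ± 0.12 lower in red-only than green-only cells (adjusted p = 0.0262). The last call was lost with any of 5 arrays left out, red-only A (adjusted p = 0.0904), B (0.0579) or C (0.0885) and green-only A (0.0559) or B (0.0802). The first was lost without both arrays of experiment A in green-only and double-negative cells (adjusted p = 0.0567).

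Flt4 intensity was 10.7, 14 and 16.1 in double-positive, 17.3, 20.4 and 17.6 in red-only, 14.8, 24.7 and 29.1 in green-only and 13.3, 15.8 and 14.4 in double-negative cells. As with Kdr, the green-only array of experiment A lay well under those of B and C. Unlike that of Kdr, it lay within the range of the double-negative arrays. No pairwise comparison of Flt4 passed the test. The nearest were green-only against double-negative cells at 0.49 ± 0.17 (adjusted p = 0.0608) and double-positive against green-only cells at -0.58 ± 0.17 (adjusted p = 0.0736). Both passed with the experiment as a replicate block, at adjusted p = 0.0117 and 0.0134, and both passed without green-only A, at 0.000943 and 0.00243. Of 3 lymphatic markers, Prox1 and Lyve1 were below the filter. The third, Pdpn, a membrane glycoprotein that other cell types also carry, was lower than double-negative cells by -2.02 ± 0.43 in double-positive (adjusted p = 0.00296) and -2.07 ± 0.43 in red-only cells (0.00358), against 17.6% and 12.7% of all genes called lower there. Both calls held with each array left out.

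Nrp1 separated all 3 reporter-positive populations from double-negative cells. Its intensity was 82.0, 114.8 and 120.9 in double-positive, 138.0, 163.6 and 152.7 in red-only, 126.2, 121.0 and 129.8 in green-only and 22.8, 33.5 and 31.3 in double-negative cells. No reporter-positive array overlapped a double-negative one. The log2 difference from double-negative cells was 1.72 ± 0.15 in double-positive cells (adjusted p = 1.78e-06), 2.23 ± 0.15 in red-only cells (6.85e-07) and 1.98 ± 0.15 in green-only cells (1.07e-06). Double-positive cells had less Nrp1 signal than red-only cells, by -0.51 ± 0.15 (adjusted p = 0.0355), in non-overlapping arrays. That smaller difference was lost under quantile normalization (adjusted p = 0.0506), without the filter (0.0540), as a mean over probe sets (0.209), and without double-positive A (0.143) or red-only A (0.0526), B (0.123) or C (0.0901). Between double-positive and green-only cells it was -0.26 ± 0.15 (95% interval -0.57 to 0.06).

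Nrp2 was lowest in double-negative cells. Its intensity was 22.5, 19.6 and 20.3 in double-positive, 42.7, 40.7 and 33.6 in red-only, 38.5, 34.6 and 25 in green-only and 14, 14.9 and 15.4 in double-negative cells. The double-positive arrays came next, and the red-only and green-only arrays overlapped above both. Against double-negative cells Nrp2 was 1.19 ± 0.13 higher in red-only (adjusted p = 2.91e-05) and 0.95 ± 0.13 higher in green-only cells (0.000183). The 0.40 ± 0.13 difference of double-positive from double-negative cells passed narrowly (adjusted p = 0.0289) and was lost without double-positive A (0.0991) or C (0.0596) or any double-negative array (A 0.0893, B 0.0634, C 0.0530). Double-positive cells were 0.79 ± 0.13 lower than red-only cells (adjusted p = 0.00131), which held with each array left out but was not repeated by its other probe sets, given further on. They were 0.55 ± 0.13 lower than green-only cells (adjusted p = 0.0241). This was lost as a mean over probe sets (0.132), in a fit to the 6 arrays compared (0.098), without double-positive A (0.0524), B (0.0862) or C (0.0708), and without green-only A (0.0741) or B (0.0666).

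**Figure D2:**
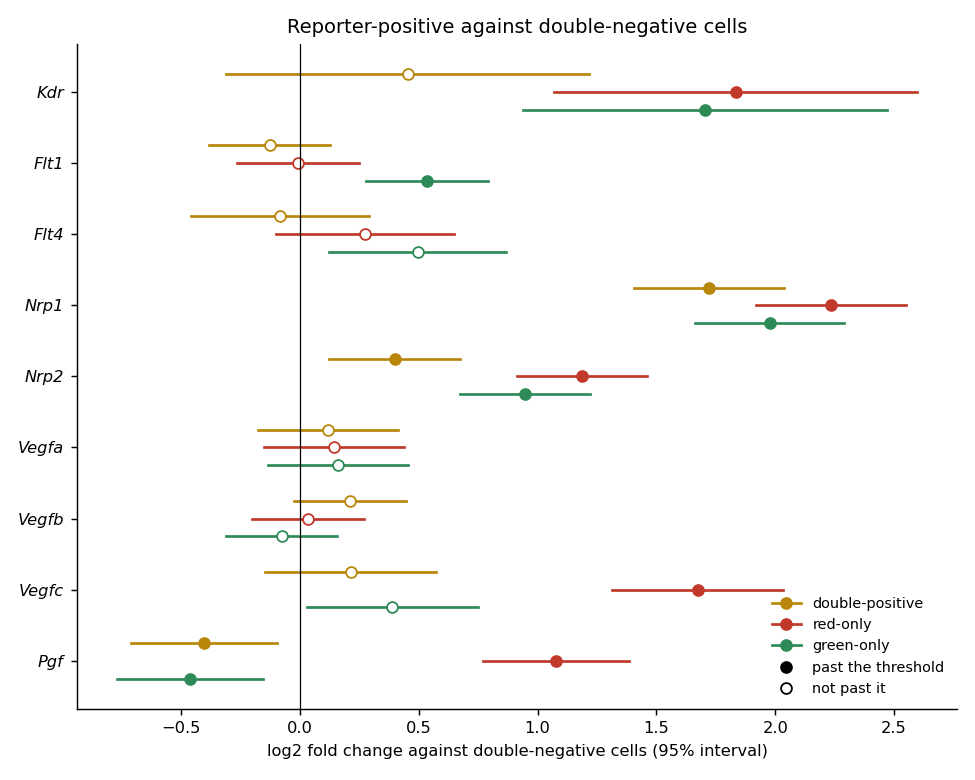
Log2 fold change against double-negative cells of each VEGF gene and of Pgf (not a member), for double-positive (top of each group), red-only and green-only cells, with 95% intervals from limma. Filled points passed the test. The double-positive points of Kdr and Vegfc, at 0.45 and 0.21, did not pass, while the red-only points lie at 1.83 and 1.67.

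Of the ligands, Vegfa and Vegfb were not called in any pairwise test. Vegfa, the main angiogenic ligand and a hypoxia-induced gene, was 60.4, 61.3 and 64.3 in double-positive, 62.8, 50.9 and 78.2 in red-only, 68.7, 55.3 and 68.3 in green-only and 49.1, 62.3 and 59.7 in double-negative cells. The populations overlapped, and the 95% intervals of its differences from double-negative cells were -0.18 to 0.41 for double-positive, -0.15 to 0.44 for red-only and -0.14 to 0.45 for green-only cells. Vegfb, a ligand of Flt1 known for its expression in heart muscle, was 117.1, 102.2 and 105.2 in double-positive, 93.8, 90.3 and 101.4 in red-only, 74.2, 94.4 and 96.1 in green-only and 100.03, 81.9 and 97.3 in double-negative cells. Its double-positive arrays lay above those of the other populations, by 0.21 ± 0.11 against double-negative cells (adjusted p = 0.174), which was not called.

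Vegfc, the ligand of Flt4, peaked in red-only cells. It was 19.6, 20.4 and 17.5 in double-positive, 57.3, 60.1 and 62.1 in red-only, 18.0, 18.8 and 31.5 in green-only and 12.1, 17.7 and 18.7 in double-negative cells. Every red-only array lay above every other array, and the remaining populations overlapped. Red-only cells were 1.67 ± 0.17 higher than double-negative cells (adjusted p = 1.59e-05) and 1.29 ± 0.17 higher than green-only cells (0.00119). Double-positive cells, which also carry the red reporter, were 1.46 ± 0.17 lower than red-only cells (adjusted p = 7.97e-05). These 3 calls held with each array left out. The green-only difference from double-negative cells, 0.39 ± 0.17 (adjusted p = 0.127), passed without green-only A (0.0468) and as a mean over probe sets (0.0230).

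Placental growth factor (Pgf), a ligand of Flt1 that was not among the 8, was also highest in red-only cells. It was 21.9, 17.7 and 20.8 in double-positive, 80.5, 64.0 and 49.2 in red-only, 20.2, 20.9 and 16.5 in green-only and 25.8, 28.2 and 29.8 in double-negative cells. It was 1.48 ± 0.14 lower in double-positive than red-only cells (adjusted p = 2.41e-05) and 1.08 ± 0.14 higher in red-only than double-negative cells (0.000147). Unlike Vegfc, it was below double-negative cells elsewhere, by -0.40 in double-positive (adjusted p = 0.0461) and -0.46 in green-only cells (0.0347), calls that were lost with 8 and 4 arrays left out in turn and without the filter (0.0655 and 0.0509). Vegfd, the other ligand of Flt4, stayed between 5.6 and 8.8 on all arrays.

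Counted together, 2 of 8 VEGF genes were higher in double-positive than double-negative cells, where 13.9% of all genes tested were called higher. In red-only cells 4 of 8 were higher than double-negative cells, against 10.9% of all genes, and in green-only cells 4 of 8, against 9.34%. In double-positive cells 4 of 8 were lower than red-only cells, against 6.17% of all genes. Against green-only cells 2 of 8 were lower in double-positive cells, against 2.77% of all genes, and with the experiment as a replicate block 4 were, against 4.96%. Between red-only and green-only cells 1 was higher and 1 lower, against 1.32% and 1.77%. An F-test among the 4 populations called 5 of 8, against 32.3% of all genes, and Flt4 (adjusted p = 0.0604), Vegfa and Vegfb were not called. With the experiment as a replicate block Flt4 passed this test (0.00918), as it did without green-only A (0.000874). The first of these counts was 1 without any of the 5 arrays on which the Nrp2 call depended. The count of double-positive below red-only cells was 2 without double-positive A, red-only B or red-only C, and that of double-positive below green-only cells was 1 without any double-positive array or green-only B. Kdr, Nrp1, Nrp2 and Vegfc kept their calls between red-only and double-negative cells with each array left out.

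Double-positive cells showed no called difference from double-negative cells for several members. The difference between cells with and without red was therefore taken among green cells (double-positive minus green-only). It was compared with that among cells without green (red-only minus double-negative). This interaction was called for 6 of 8 members, all negative, against 5.67% of all genes called negative. It was -3.08 ± 0.50 for Kdr (adjusted p = 0.00203), -2.49 ± 0.21 for Nrp1 (2.72e-05), -1.74 ± 0.18 for Nrp2 (0.000124) and -1.85 ± 0.23 for Vegfc (0.000432). These 4 held with each array left out. Flt1, at -0.65 ± 0.17 (adjusted p = 0.0253), was lost without red-only B (0.0638), green-only B (0.0551) or double-negative A (0.0639). Flt4, at -0.85 ± 0.24 (adjusted p = 0.0428), was lost without the filter (0.0662), as a mean over probe sets (0.0908) and with each of 10 arrays left out, with adjusted p up to 0.0998. Only the removal of double-positive C or green-only A kept it. Vegfa (-0.18 ± 0.19, adjusted p = 0.659) and Vegfb (0.25 ± 0.15, 0.364) were not called.

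**Figure D3:**
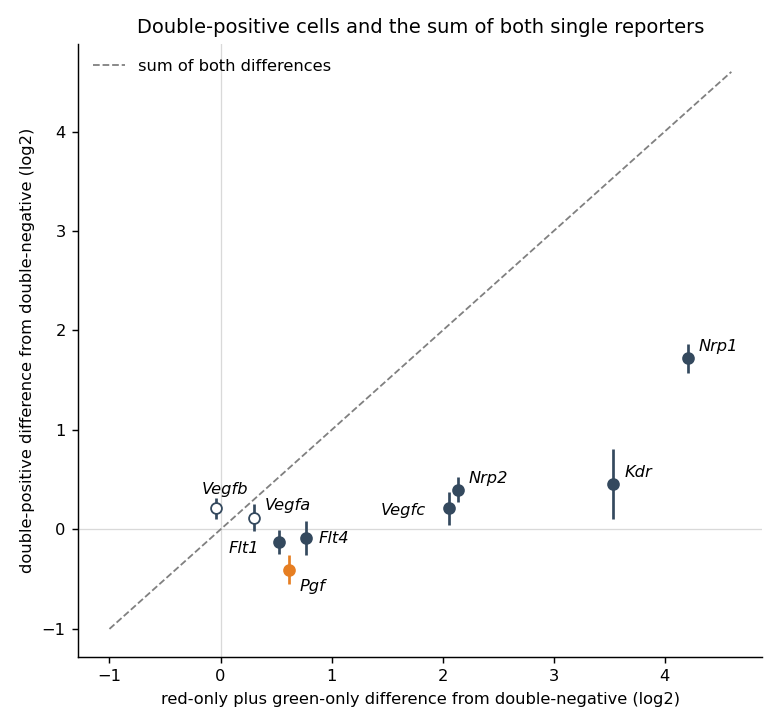
Difference of double-positive from double-negative cells (vertical, log2, bars are SE) against the sum of the red-only and green-only differences (horizontal, log2). The vertical distance of a gene from the dashed line is its interaction, filled points passed that test, and both axes use the same double-negative arrays. Kdr lies at 0.45 where the sum is 3.54, and Nrp1 at 1.72 where the sum is 4.21. Pgf, in orange, is not a member.

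The other 13 probe sets of the members were fitted one by one, and 12 passed the filter. Their sign was that of the first probe set for 11 of 12 between double-positive and double-negative cells, 9 between red-only and double-negative cells and 12 between green-only and double-negative cells. All 4 Flt1 probe sets were called higher in green-only than double-negative cells, at 0.53, 0.80, 0.51 and 0.55, where 18.2% of all probe sets were called in either direction. Vegfc was called higher in red-only than double-negative cells on all 3 of its probe sets, at 1.67, 1.82 and 1.53, against 20.5% of all probe sets. Of the Nrp1 probe sets, 3 gave 2.23, 2.37 and 2.09 in red-only against double-negative cells, and the fourth, with intensities of 4.0 to 8.7, gave 0.22 and was not called. The Nrp2 call in double-positive against double-negative cells was not repeated by its other tested probe sets, at 0.32 (adjusted p = 0.140) and 0.19 (0.349), in a comparison that called 28.5% of all probe sets. The Nrp1 difference of double-positive from red-only cells was -0.48, -0.52 and 0.11 on its other probe sets, none called, against 10.4% of all probe sets. The Nrp2 difference in that comparison, called on its first probe set, was -0.31 (adjusted p = 0.243) and -0.39 (0.0856) on the others. Of 7 other probe sets of the members called there, 2 were called in the same direction, both of Vegfc. The second Vegfa probe set was not called in any comparison, its largest difference from double-negative cells being 0.46 in green-only cells (adjusted p = 0.0672). Kdr and Vegfb have 1 probe set each.

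**Figure D4:**
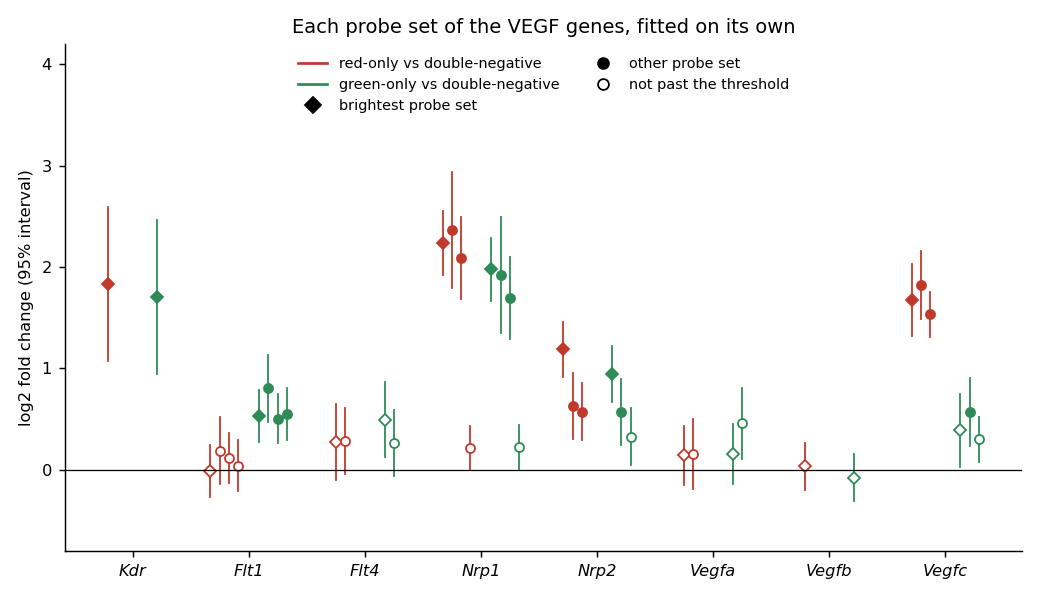
Log2 fold change with 95% interval of every tested probe set of the 8 genes in red-only (left of each pair) and green-only (right) against double-negative cells. Diamonds are the brightest probe sets, filled symbols passed the test over 23232 probe sets, and the Flt1 and Vegfc probe sets stand together while the last of Nrp1 stays near 0.

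Genes with values most like those of Kdr were sought over the 12 arrays by the root mean square difference after centring each gene on its own log2 mean. The nearest was Tek, the angiopoietin receptor, at 0.15, followed by Rhoj, a small GTPase of endothelial cells, at 0.21, Ramp2, a receptor partner for adrenomedullin, at 0.21, Plxnd1, a semaphorin receptor, at 0.22, and Cdh5, the VE-cadherin of endothelial junctions, at 0.27. Tek was 26.9, 34.5 and 38.9 in double-positive, 64.8, 98.9 and 75.3 in red-only, 35.8, 122.8 and 110.0 in green-only and 15.1, 30.3 and 22.3 in double-negative cells. All 5 shared with Kdr the low value on the green-only array of experiment A, but they were chosen by likeness over these same arrays. Tek, Ramp2 and Cdh5 are also endothelial markers of the list used here. The genes nearest to Flt1 were Wnt4, Sh3tc1, Ppp1r16b, Cltc and Slc38a6, at 0.15 to 0.16 against the Flt1 standard deviation of 0.29. For Vegfa, whose standard deviation was 0.17, they were Metap1d, Mrpl14, Ppp6r1, Ift20 and Fam221a, at 0.10 to 0.11.

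**Figure D5:**
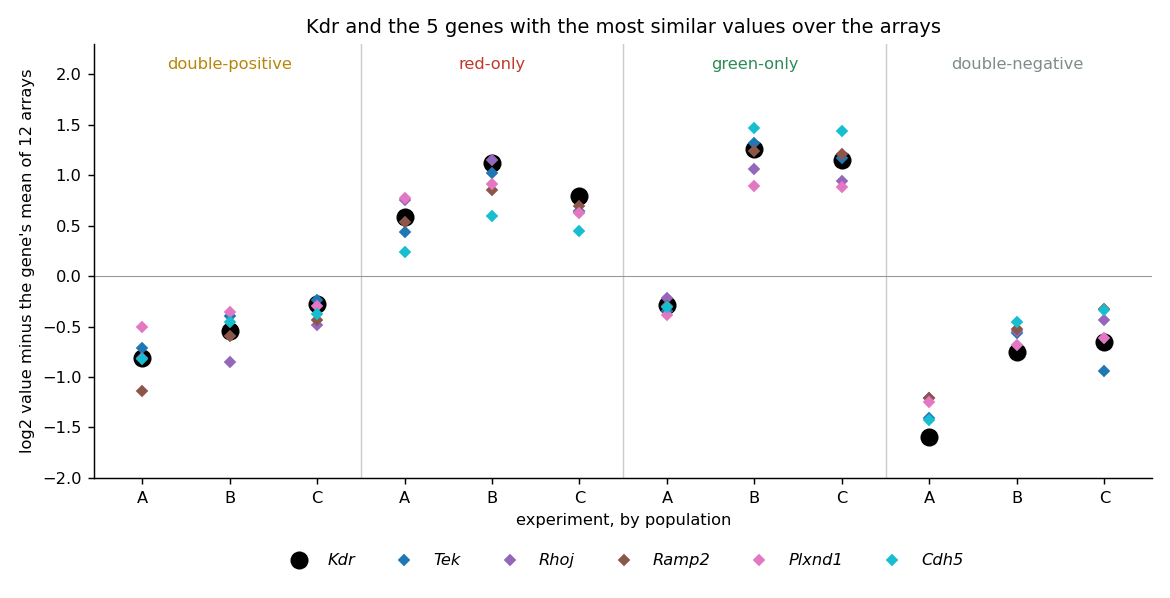
Kdr (large black points) and the 5 genes with the smallest root mean square difference from it, as log2 value minus the gene's mean over 12 arrays, by population and experiment. All 6 genes are above their mean in red-only cells and in green-only cells of experiments B and C, and below it on green-only A and on every double-positive and double-negative array.

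Of the 19 endothelial markers, 11 were higher in red-only than double-negative cells (median 0.81), 11 in green-only than double-negative cells (0.82) and 0 in double-positive than double-negative cells (0.06). The shares of all genes called higher there were 10.9%, 9.34% and 13.9%. The median over all genes tested lay between -0.02 and 0.00 in these and every other pairwise comparison. No endothelial marker reached an unadjusted p under 0.05 in limma between double-positive and double-negative cells, but without green-only A 2 were called lower there. The red-only count was 7 without red-only B or double-negative B and 5 without double-negative A. The green-only count was 17 without green-only A and 5 without green-only B, green-only C or double-negative A. In double-positive cells 5 were lower than red-only cells, against 6.17% of all genes. That count was 16 without green-only A, an array of neither population, and 3 without double-positive A, red-only B or red-only C. Against green-only cells 7 were lower in double-positive cells, against 2.77% of all genes. That count was 14 without green-only A, 1 without double-positive A, and 2 without double-positive B, green-only B or green-only C. In red-only against green-only cells 0 were lower, against 1.77% of all genes, and 6 without green-only A. Etv2 was 19.2, 23.6 and 28.3 in double-positive, 69.0, 84.0 and 83.5 in red-only, 21.3, 31.5 and 34.8 in green-only and 17.3, 22.7 and 19.3 in double-negative cells. Its red-only arrays were the highest, at 1.80 ± 0.16 over double-negative cells (adjusted p = 6.46e-06). Etv2 was also called higher in red-only than green-only cells, by 1.33 ± 0.16 (limma, adjusted p = 0.000665), against 1.32% of all genes. With each array left out, 1 endothelial marker was higher there. The part of endothelial cells in the differences of Kdr and the neuropilins was not tested.

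Among 7 other ligands and VEGF-binding proteins, 2 were higher and 2 lower in double-positive than double-negative cells (median 0.09). In red-only cells 2 were higher (0.15), and in green-only cells 2 were higher and 2 lower (-0.10). For this list and those that follow, the shares of all genes called higher and lower were 13.9% and 17.6% in double-positive, 10.9% and 12.7% in red-only, and 9.34% and 11.4% in green-only cells. The lower count of double-positive cells was 1 without any double-positive or double-negative array, red-only B or green-only B. In green-only cells the higher count was 1 without green-only B or double-negative B or C, and the lower count 1 without green-only C or any double-negative array. Red-only cells had 1 lower gene without red-only A, green-only A or green-only B. Itgav, an integrin subunit that binds matrix and pairs with Itgb3, was 156.6, 131.7 and 125.4 in double-positive, 111.7, 105.1 and 103.5 in red-only, 122.1, 93.9 and 91.6 in green-only and 54.0, 58.7 and 57.4 in double-negative cells. It was higher than double-negative cells in all 3 populations, by 1.22, 0.87 and 0.80. Itgb3 was 59.6, 24.2 and 21.3 in double-positive and 8.4, 8.0 and 12.2 in double-negative cells, higher by 1.40 ± 0.28 (adjusted p = 0.00172). Gpc1, a heparan sulphate proteoglycan of the cell surface, was lower in double-positive than double-negative cells by -1.42 ± 0.17 (adjusted p = 3.36e-05).

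Partners of the neuropilins went different ways. Of 12 class 3 semaphorins and plexins, 9 were tested, of which 2 were higher and 2 lower in double-positive, 1 higher in red-only and 3 higher in green-only cells than double-negative cells, with medians of 0.06, -0.01 and 0.05. The double-positive counts were 1 higher without double-positive B or double-negative C, and 1 lower without any double-positive array or double-negative B or C and 0 without double-negative A. The red-only count was 2 without green-only A or B. Sema3a, a repulsive ligand of Nrp1, was highest in double-positive cells, at 51.8, 27.9 and 33.6, against 11.1, 13.4 and 13.3 in red-only, 21.1, 20.4 and 20.9 in green-only and 11.1, 12 and 11.4 in double-negative cells. Its difference of double-positive from double-negative cells was 1.39 ± 0.15 (adjusted p = 1.63e-05), and from red-only cells 1.29 ± 0.15 (0.000105). Plxnd1, which signals for Sema3e in endothelium, was 48.7, 54.7 and 57.1 in double-positive, 123.9, 137.5 and 111.3 in red-only, 53.3, 135.5 and 134.6 in green-only and 27.5, 42.6 and 44.8 in double-negative cells. It was 1.62 ± 0.28 higher in red-only (adjusted p = 0.000978) and 1.32 ± 0.28 higher in green-only cells (0.00433) than double-negative cells.

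Of 28 genes of VEGF receptor signalling, 24 were measured. Against double-negative cells 7 were higher and 2 lower in double-positive cells (median 0.10), 8 higher and 1 lower in red-only cells (0.21) with 7 higher and 1 lower for green-only cells (0.21). The matching shares of all genes were 13.9% and 17.6%, 10.9% and 12.7%, and 9.34% and 11.4%. The lower count of double-positive cells was 1 without double-positive A or B or double-negative A or B. The red-only count was 5 without double-negative B. The green-only count was 3 without green-only B, green-only C or double-negative B and 4 without double-negative A. Akt1, a survival kinase downstream of many receptors, was 136.0, 136.9 and 125.7 in double-positive, 148.9, 148.8 and 143.5 in red-only, 121.6, 121.7 and 109.9 in green-only and 71.5, 66.6 and 75.8 in double-negative cells. No array of a reporter-positive population overlapped the double-negative ones, with differences of 0.86, 1.005 and 0.69. Shb, an adaptor that binds activated Kdr, went the other way, at 24.3, 22.4 and 16.7 in double-positive, 15.5, 9.3 and 14 in red-only, 24.1, 16.3 and 15.4 in green-only and 40.6, 35.8 and 42.6 in double-negative cells. Its differences from double-negative cells were -0.80, -1.38 and -0.96. Nos3, the endothelial nitric oxide synthase, was 18.7, 76.1 and 68.2 in green-only and 15, 18.9 and 18.8 in double-negative cells, again low on green-only A. That call (1.24 ± 0.36, adjusted p = 0.0276) was lost without green-only B, green-only C or a double-negative array, with adjusted p up to 0.119.

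Of 12 genes that VEGF is known to induce in endothelium, 10 were tested, and against double-negative cells 2 were higher and 1 lower in double-positive cells (median 0.10), 2 higher in red-only cells (0.06) and 2 higher in green-only cells (0.17). Of all genes 13.9%, 10.9% and 9.34% were higher in these comparisons, and 17.6% were lower in the first. The 2 that were higher in every reporter-positive population were Nr4a1, a nuclear receptor of the immediate early response, by 1.14, 1.12 and 1.02, and Adamts1, a secreted protease, by 1.04, 1.23 and 0.71. The 1 lower gene, Nrarp, a feedback inhibitor of Notch signalling, at -0.34 ± 0.09 (adjusted p = 0.0113), was lost without double-positive A or double-negative B. Nr4a1 was 117.9, 139.8 and 178.2 in double-positive and 58.7, 70.6 and 59.2 in double-negative cells. Many other stimuli also induce both genes.

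The 18 genes of hypoxia sensing and response, to which Vegfa belongs by function, included higher and lower genes in each reporter-positive population. In double-positive cells 8 were higher and 2 lower than double-negative cells (median 0.35), in red-only cells 2 higher and 3 lower (0.01), while green-only cells had 3 higher and 1 lower (0.23). The lower count of double-positive cells was 1 without double-positive B, double-positive C, double-negative A or double-negative C, and the higher count of red-only cells 1 without red-only B or double-negative A. The green-only count was 5 without green-only A or double-negative C and 1 without green-only C, double-negative A or double-negative B. Among the higher genes in double-positive than double-negative cells were Ankrd37, by 1.07 ± 0.20 (limma, adjusted p = 0.00118), and Bnip3, by 0.87 ± 0.15 (0.000729). Both were also higher in double-positive than red-only cells, by 0.95 and 0.83. Hif1a, the oxygen-regulated transcription factor subunit, was 247.0, 209.4 and 198.4 in double-positive and 117.8, 132.5 and 117.3 in double-negative cells (0.81 ± 0.11, adjusted p = 7.42e-05). Ddit4, a stress-induced inhibitor of mTORC1, was 105.3, 81.4 and 91.4 in double-positive and 416.0, 325.3 and 350.3 in double-negative cells, a difference of -1.93 ± 0.23 (adjusted p = 3.34e-05). Ddit4 was also lower in red-only (-1.23) and green-only cells (-1.31). In red-only cells Slc2a1, the glucose transporter, was lower than double-negative cells by -1.19 ± 0.22 (adjusted p = 0.00161). Vegfa itself was not called in either direction, as given above.

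Of 12 other vascular receptor kinases and ligands, 2 were higher and 3 lower in double-positive than double-negative cells (median 0.08), 5 higher and 1 lower in red-only cells (0.32) and 3 higher in green-only cells (0.30). Without double-negative A the first count was 1. The lower count of red-only cells was 2 without red-only B, green-only A or double-negative A, and green-only cells had 1 lower gene without green-only A. Angpt1, the ligand that activates Tek, had its highest values in double-positive cells, 51.8, 61.3 and 48.6, against 29.3, 21.7 and 23.3 in red-only, 20.2, 34.5 and 28.2 in green-only and 7.0, 8.2 and 8.2 in double-negative cells. It was 2.28 ± 0.15 higher in double-positive than double-negative cells (adjusted p = 1.89e-07) and 1.01 ± 0.15 higher than red-only cells (0.000777). Its receptor Tek had the profile of Kdr, and was 1.67 ± 0.36 higher in red-only (adjusted p = 0.00399) and 1.68 ± 0.36 higher in green-only cells (0.0044) than double-negative cells. Pdgfrb, the receptor of mural cells, was 21.2, 28.0 and 18.6 in red-only and 7.8, 8.8 and 9.9 in green-only cells (1.04 ± 0.14, adjusted p = 0.00157).

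Between the reporter-positive populations the same 6 lists were counted. In double-positive against red-only cells, where 5.94% of all genes were called higher and 6.17% lower, the other VEGF-binding genes had 1 higher and 2 lower, semaphorins and plexins 1 higher and 1 lower, signalling genes 4 higher and 3 lower, VEGF-induced genes 1 lower, hypoxia genes 6 higher, and other vascular kinases and ligands 1 higher and 4 lower. In double-positive against green-only cells (2.85% and 2.77%) they had 1 higher, 1 higher, 1 higher and 1 lower, none, none, and 1 higher and 4 lower, in the same order. In red-only against green-only cells (1.32% and 1.77%) they had 1 higher, none, 1 higher, none, 1 lower, and 2 higher and 2 lower. At an unadjusted p under 0.05 in limma, the hypoxia genes had 5 higher and 3 lower in double-positive against green-only cells, and with the experiment as a replicate block 5 higher and 4 lower passed the adjusted test, against 4.41% and 4.96% of all genes with that block. The VEGF-induced genes had 1 higher and 1 lower at an unadjusted p under 0.05 both in double-positive and in red-only cells against green-only cells. Semaphorins and plexins had 0 higher and 1 lower at that level in red-only against green-only cells. The share of all genes at this unadjusted level was not counted, so these unadjusted counts cannot be set against it.

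Several of these counts changed with single arrays left out, also with arrays of neither population compared. In double-positive against red-only cells, signalling genes lower were 5 without green-only A. Nrarp, the VEGF-induced gene that was lower there, was lost without double-positive A or C, any red-only array, green-only C or double-negative A. Plxnd1, the plexin that was lower there, was lost without double-positive A or red-only B, at adjusted p up to 0.0598. Itgav, the VEGF-binding gene higher in double-positive than green-only cells, at 0.42 ± 0.11 (adjusted p = 0.0441), was lost with each of 10 arrays left out, all but double-positive C and green-only A. Pxn, a focal adhesion protein and the signalling gene lower there, was lost with each of 9 arrays left out, while without green-only A 3 signalling genes were lower. Prkca, a protein kinase C and the signalling gene higher there, was lost without double-positive A or green-only A, and 2 were higher without double-negative A or C. Of the other vascular kinases and ligands lower there, the count was 2 without any double-positive array or green-only C. In red-only against green-only cells the lower count of that list was 0 without red-only A or B and 1 without red-only C, green-only C, double-negative B or any double-positive array, and Slc2a1, the hypoxia gene that was lower there, was lost without red-only B, green-only A or green-only C. Akt1, the signalling gene higher in red-only than green-only cells, at 0.31 ± 0.07 (adjusted p = 0.0396), was lost with each of 9 arrays left out, and without green-only A 2 signalling genes were lower there against 0. Pgf was higher in red-only than green-only cells by 1.54 ± 0.14 (adjusted p = 0.000122) and kept its call with each array left out.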

How the data were processed

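RNA of 4 sorted populations was measured on 12 arrays, 3 a population, and groups were taken from the sample titles. The values the authors deposited are linear probe set intensities, made with MAS5 per the submitters' processing notes, with version and scaling target not given in the sources used here. They share a floor near 2.09 and carry no detection calls, so low values have little meaning, and the number of arrays limits the precision.

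Of 45101 probe sets, 64 controls and 932 with several genes were left out and 9160 named no gene. A pseudocount of 4.10, the 25th percentile of all values, was added before taking log2, and no further normalization was applied. This scale understates changes of dim probe sets. Genes with a mean log2 value under 3.22, the 40th percentile, were left out. limma 3.58.1 (R 4.3.3) was fitted to all 12 arrays (1 mean per population, 8 residual degrees of freedom). The 4 populations thus share 1 estimate of the spread. Leaving out an array changes that estimate, and with it calls between populations the array does not belong to. P-values were two-sided except for the F-test and adjusted by Benjamini-Hochberg over 13698 genes, with a threshold of 0.05. An exact permutation test of 3 arrays against 3 cannot give p under 0.1. The procedure was tested on simulated data. Figures used matplotlib 3.10.9 in Python 3.11.15.

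Deviations from population means correlated at 0.116 to 0.423 in all 18 pairs of arrays of the same experiment letter, so the letters pair the arrays. The main fit leaves this pairing out, and its values are the ones given unless the block is named. The fits with arrays left out also leave the pairing out, so calls lost in them were not tested with the block. Results with the experiment as a replicate block are given where they change a call of a VEGF gene. For the lists they are given only for hypoxia genes in double-positive against green-only cells. Members, lists and most alternatives were chosen with earlier results of these data known, and the separate probe sets and the removal of 2 arrays of experiment A after seeing the data. Named were all 8 members, up to 4 list genes with the largest called changes per comparison, and the 5 genes most like Kdr, Flt1 and Vegfa. Genes outside this rule (Emcn, Prox1, Lyve1, Vegfd) were named after their values were seen.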

Additional observations from a re-analysis of the deposited data

Results flagged for a closer look

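For 6 VEGF genes and Pgf, the log2 difference that goes with the red reporter was not the same in green cells (double-positive minus green-only) as in cells without green (red-only minus double-negative), by limma's test of the interaction. The difference between the 2 differences was -3.08 for Kdr, -2.49 for Nrp1, -1.85 for Vegfc, -1.74 for Nrp2, -1.02 for Pgf, -0.85 for Flt4 and -0.65 for Flt1. Of all genes 5.67% were called negative in this test. The calls of Flt1 and Flt4 were lost with single arrays left out, as given above. The difference between the differences was negative in each of the 3 experiments for all 7 genes, in the same values that gave the calls. For Kdr it was -2.71, -3.67 and -2.87 in experiments A, B and C, and for Pgf -1.40, -1.27 and -0.38.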

How the results depend on the processing

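Of 1377 values of the 8 genes and Pgf under alternative settings, 1300 kept their side of the threshold. Another 63 kept the direction but no longer passed, and 14 newly passed. Differences that were not called could change sign. That of Kdr between red-only and green-only cells ran from -0.37 to 0.40 with single arrays left out. Genes called in double-positive against green-only cells were 771, but 1283 with the experiment as a replicate block, 258 in a fit to the 6 arrays compared and 357 to 777 with single arrays left out (lowest without double-positive A, 473 without double-positive B). Genes called in red-only against green-only cells were 423, but 787 with the block, 200 in the 6 arrays and 204 to 475 with single arrays left out (211 without red-only A, 204 without red-only B). VEGF genes lower in double-positive than green-only cells were 2, but 1 as a mean over probe sets, 4 with the block, 1 in the 6 arrays and 1 to 3 with single arrays left out. With single arrays left out, VEGF genes higher in double-positive than double-negative cells were 1 to 2, those lower in double-positive than red-only cells 2 to 4, and those lower in red-only than green-only cells 0 to 1. The block changed no other call of a VEGF gene than 3 pairwise calls of Kdr and Flt4 and the F-test of Flt4, printed in the report. Quantile normalization changed 1 call, pseudocount 1 changed 0. Dim probe sets such as those of Vegfd lie near the floor, where differences are compressed. The Flt4 values, 10.7 to 29.1, lay above the array medians of 6.29 to 6.73.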
